A study of Mus musculus with 9 samples.

Results

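Ebf1, Spi1, Spib, Cebpa, Cebpb, Gata1, Gata2, Irf8 and Bcl11a encode 9 transcription factors that direct the B-cell, myeloid, erythroid and mast-cell branches of blood development, and the peaks called at these genes in T-cell lymphoma chromatin are described here. The 9 genes were taken by name from 21887 protein-coding genes of the RefSeq mouse annotation (GRCm38.p6). The material was thymus of C57BL/6J mice carrying T-cell lymphoma driven by MYCN, and every library came from such lymphoma cells, with no normal thymus or other control tissue among the 9 samples. The promoter driving MYCN, the age of the mice and the number of animals are not given in the sources used here. Chromatin was profiled by ChIPmentation, in which a transposase adds sequencing adapters to chromatin held on the antibody, with 1 library for each of 7 antibodies: EZH2, SUZ12, H3K27me3, N-MYC, p300, H3K27ac and H3K4me3. The 2 remaining samples were inputs and were not used here.

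EBF1 specifies B cells. PU.1, the product of Spi1, works in myeloid cells and B cells and is also present in the earliest thymic progenitors, and Spi-B is its close relative in B cells and plasmacytoid dendritic cells. C/EBPα and C/EBPβ drive granulocyte and macrophage genes, GATA1 drives erythroid, megakaryocyte and mast-cell genes, and GATA2 acts in blood stem cells and mast cells. IRF8 directs monocytes, dendritic cells and B cells, and BCL11A acts in B cells, stem cells and the silencing of fetal globin. T-cell precursors shut most of these genes down as they commit to the T lineage. EZH2 is the methyltransferase and SUZ12 a core subunit of Polycomb repressive complex 2, which deposits H3K27me3, a mark of silent developmental genes. H3K4me3 marks promoters in use or poised, H3K27ac marks active promoters and enhancers, p300 is an acetyltransferase that places H3K27ac, and N-MYC is the lymphoma driver that binds active promoters.

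Each value below is the authors' fold enrichment of a peak over background, a linear ratio, and a gene without a value had no peak called by the authors, whose lists end at a −log10 q between 2.0 and 2.08. Since no antibody had a second library, no difference here has a replicate check, no test was run, and the read depth is unknown. Starts came from a RefSeq promoter table, which held 11 starts for 8 of the 9 genes. It held none for Spi1, which was therefore read over its gene body and at both ends of its gene model. The same table gave starts for 17492 protein-coding genes, which served as the background.

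The promoter windows, from 250 bases before to 50 after a start, are shown for 5 genes with different sets of calls at the start: Cebpb (peaks of all 4 active lists), Cebpa (Polycomb peaks with H3K4me3), Irf8 (N-MYC without H3K27ac), Ebf1 at its first start (Polycomb peaks alone) and Spib (no peak). They read 5′ to 3′ on the strand of the gene, are credited to RefSeq on GRCm38.p6, and carry each CpG dinucleotide in capitals.
Cebpb: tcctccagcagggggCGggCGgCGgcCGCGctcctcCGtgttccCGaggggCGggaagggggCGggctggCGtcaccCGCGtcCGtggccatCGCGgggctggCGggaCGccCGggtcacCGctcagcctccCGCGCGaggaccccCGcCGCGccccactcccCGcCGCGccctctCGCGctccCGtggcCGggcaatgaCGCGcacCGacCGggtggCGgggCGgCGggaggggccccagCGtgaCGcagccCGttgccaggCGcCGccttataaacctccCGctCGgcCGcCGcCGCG
Cebpa: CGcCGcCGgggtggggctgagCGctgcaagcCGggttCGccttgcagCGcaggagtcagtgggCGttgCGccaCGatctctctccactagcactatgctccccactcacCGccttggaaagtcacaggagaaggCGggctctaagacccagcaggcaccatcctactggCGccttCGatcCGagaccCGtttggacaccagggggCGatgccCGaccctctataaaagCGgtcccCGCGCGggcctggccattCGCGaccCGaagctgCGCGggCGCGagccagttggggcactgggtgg
Irf8: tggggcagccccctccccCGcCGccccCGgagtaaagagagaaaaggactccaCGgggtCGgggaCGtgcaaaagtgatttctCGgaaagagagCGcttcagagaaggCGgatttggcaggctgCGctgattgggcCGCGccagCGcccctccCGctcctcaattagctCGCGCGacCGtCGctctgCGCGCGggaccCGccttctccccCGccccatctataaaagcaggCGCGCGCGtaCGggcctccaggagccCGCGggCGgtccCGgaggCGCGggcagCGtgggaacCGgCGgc
Ebf1: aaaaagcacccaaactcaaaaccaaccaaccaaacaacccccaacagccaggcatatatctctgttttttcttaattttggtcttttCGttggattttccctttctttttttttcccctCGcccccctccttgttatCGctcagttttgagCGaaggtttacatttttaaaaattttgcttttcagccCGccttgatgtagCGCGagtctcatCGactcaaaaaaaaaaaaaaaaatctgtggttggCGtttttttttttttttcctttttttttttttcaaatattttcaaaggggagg
Spib: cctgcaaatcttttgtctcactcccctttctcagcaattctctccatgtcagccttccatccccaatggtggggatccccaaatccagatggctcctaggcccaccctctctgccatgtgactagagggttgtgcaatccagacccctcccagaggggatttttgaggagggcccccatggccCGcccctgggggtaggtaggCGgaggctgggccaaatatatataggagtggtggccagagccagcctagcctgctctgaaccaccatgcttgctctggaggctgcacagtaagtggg

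In the order printed, the windows lie at chr2:167688665-167688964 on the plus strand, chr7:35119043-35119342 plus, chr8:120736108-120736407 plus, chr11:44617850-44618149 plus and chr7:44532022-44532321 minus. The Cebpb window held 50 CpG dinucleotides, more than 98.9% of the 21263 starts of protein-coding genes. The first Irf8 window held 38, and the window at its second start held 8. Cebpa held 29, and Gata2 held 32 at its first start and 29 at its second. The Bcl11a window held 23 and the first Ebf1 window 9, with 17 at the second Ebf1 start 2128 bp downstream. Gata1 held 4 and Spib 2. The 2 CpG-poorest genes, Spib and Gata1, were without any EZH2, SUZ12 or H3K27me3 peak at the start, while the 4 genes with all 3 ranged from 9 to 32. The 2 CpG-richest genes, Cebpb and Irf8, had no SUZ12 peak at a start either. Over all genes the median was 13 CpG per start, 22 at the 2410 starts with EZH2, SUZ12 and H3K27me3, 25 at the 6519 starts with all 4 active lists, and 2 at the 5954 starts with no peak.

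**Figure D1:**
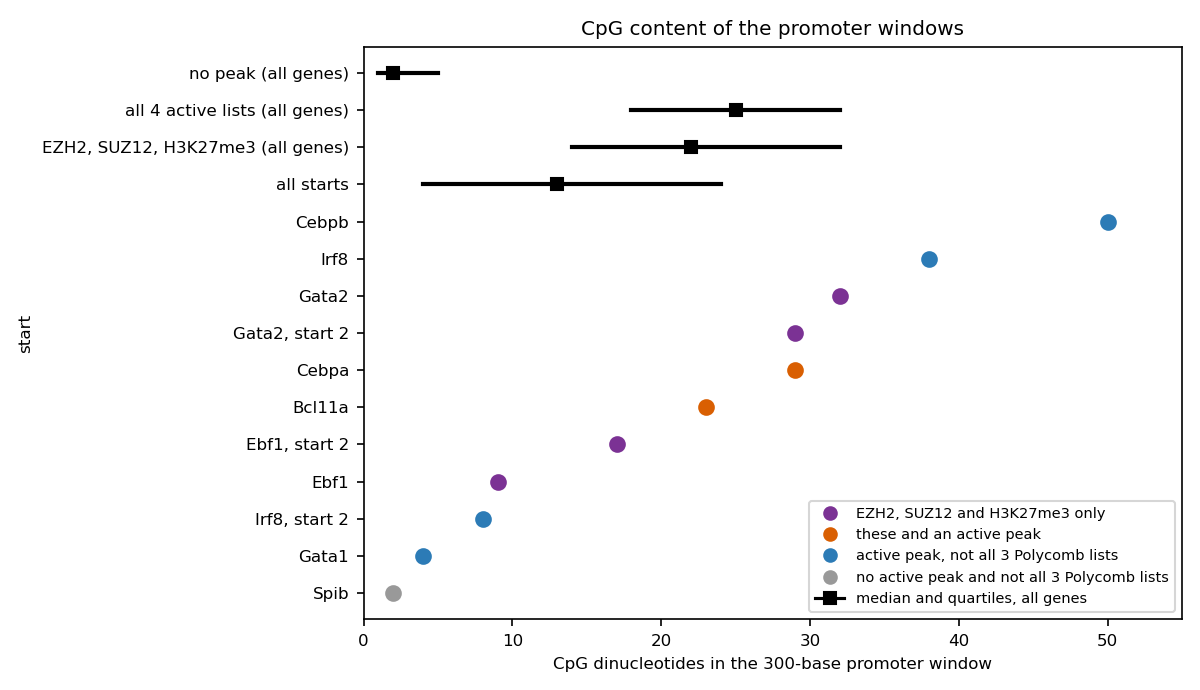
CpG dinucleotides (x axis) in the 300-base promoter window of each of the 11 starts (y axis), coloured by the peaks within 1 kb of that start, with the median and quartiles of groups of all protein-coding starts as squares and bars. Spib with 2 and Gata1 with 4 lie lowest, and Cebpb with 50 lies highest.

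The windows were searched on both strands for short core sequences of factors that are themselves among the 9 genes, and for the E-box of MYC. The E-box CACGTG was in none of the 11 windows, against 7.84% of all promoter windows and 13.8% of the 6297 windows overlapped by an N-MYC peak. Neither AGATAA, searched for the GATA factors, nor GAGGAAG, searched for PU.1, occurred in any of the 11 (9.65% and 13.6% of all windows). TTGCNNAA, searched for the C/EBP factors, occurred in 1 window, that of Spib, at position -121 relative to the start, and in 10.2% of all windows. CCCNNGGG, searched for EBF1, which reads the same on both strands, was in 6 of the 11 windows, those of Cebpb, Gata1, Irf8 (first start), Spib and both starts of Gata2, against 15.6% of all windows. These are matches of letters in windows that are mostly rich in G and C (from 36.7% at Ebf1 to 80.7% at Cebpb), and the part of base composition in them was not tested.

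The 8 genes with a start fell into sharply different states. Within 1 kb of a start, EZH2, SUZ12 and H3K27me3 were all called at 4 of 8 genes, namely Ebf1, Cebpa, Gata2 and Bcl11a, against 11.8% of all genes. At least 1 of H3K4me3, H3K27ac, p300 and N-MYC was called at 5 of 8 (Cebpa, Cebpb, Gata1, Irf8 and Bcl11a; 55.8% of all genes), and all 4 were called at Cebpb alone of the 8 (31.5% of all genes). H3K4me3 and H3K27me3 were both called at 3 of 8, Cebpa, Irf8 and Bcl11a (7.55% of all genes). By list, EZH2 was called at 5 of 8 genes (46.0% of all genes), SUZ12 at 4 (12.8%), H3K27me3 at 5 (24.3%), N-MYC at 2 (34.0%), p300 at 1 (40.6%), H3K27ac at 2 (52.2%) and H3K4me3 at 5 (52.1%). With so few genes, and genes chosen by name, these shares are descriptions only. The median highest fold enrichment at a start over the 8 genes, counting no peak as 0, was 6.79 for EZH2, 3.78 for SUZ12, 9.27 for H3K27me3 and 7.40 for H3K4me3, and 0 for N-MYC, p300 and H3K27ac. Over all genes it was 3.86 for H3K27ac, 5.04 for H3K4me3 and 0 for the other 5 lists.

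**Figure D2:**
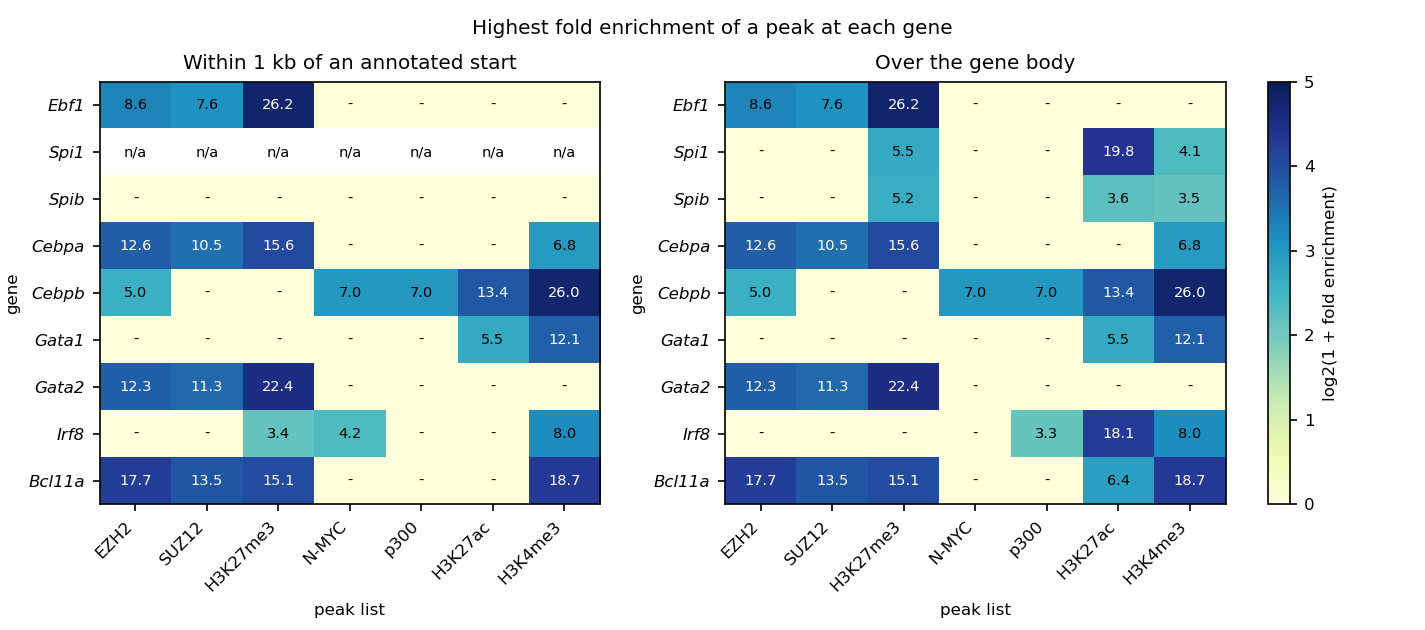
Highest fold enrichment of a peak of each list (columns) at each of the 9 genes (rows), within 1 kb of a start on the left and over the gene body on the right, coloured by log2(1 + fold enrichment). A dash means that no peak was called and n/a that no start was in the table. Ebf1, Cebpa, Gata2 and Bcl11a fill the 3 Polycomb columns, from 7.56 to 26.24, and Cebpb fills the 4 active ones.

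Ebf1, on chromosome 11 (44618100 to 45008096, plus strand), carried the strongest H3K27me3 peak of the set. At its starts EZH2 reached 8.60, SUZ12 7.56 and H3K27me3 26.24, and no N-MYC, p300, H3K27ac or H3K4me3 peak was called. The H3K27me3 value exceeded that of 99.7% of the 4244 genes with such a peak at a start. EZH2 stood lower among its genes, above 86.5%, and SUZ12 above 71%. The first start lay in an H3K27me3 peak running from -8989 to 5981 bp relative to it, inside which EZH2 was called as 8 shorter peaks between -7187 and 5218 bp. The gene body, 390 kb long, held 47 H3K27me3 peaks with a median fold enrichment of 4.80, the last ending 264.6 kb from the start, and no peak of the 4 active lists over its whole length. They covered 7.97% of the body.

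Gata2, on chromosome 6 (88193891 to 88207032, plus strand), had the same set of calls as Ebf1, a set shared by 1195 genes or 6.83%. EZH2 reached 12.32, SUZ12 11.30 and H3K27me3 22.37, with no active peak at either of its 2 starts, which lie 4773 bp apart. These values exceeded 97.4%, 91.9% and 98.6% of the genes with a peak of that list. A single EZH2 peak of 8.18 kb and a single SUZ12 peak of 12.4 kb spanned both starts. H3K27me3 covered 99.5% of the gene body, EZH2 68.5% and SUZ12 73.9%. No H3K27ac, p300, N-MYC or H3K4me3 peak lay within 50 kb of its first start, which also held for Ebf1 and for no other member.

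Cebpa and Bcl11a joined the same Polycomb peaks to H3K4me3. Cebpa, a gene of 2.64 kb on chromosome 7 (35119293 to 35121928, plus strand), had EZH2 at 12.56, SUZ12 at 10.49, H3K27me3 at 15.55 and H3K4me3 at 6.81. Its H3K4me3 peak, from -1245 to 512 bp relative to the start, lay wholly within the EZH2 peak (-2119 to 2866 bp), within the SUZ12 peak and within an H3K27me3 peak of 11.8 kb. The H3K4me3 value was low, above 6.95% of the 9119 genes with such a peak. Bcl11a, on chromosome 11 (24076564 to 24173558, plus strand), had EZH2 at 17.67, SUZ12 at 13.46, H3K27me3 at 15.12 and H3K4me3 at 18.69. This was the highest EZH2 and SUZ12 value of the 9 genes, above 99.4% and 96.1% of genes with such peaks, and its H3K4me3 value was above 26.6%. The Bcl11a H3K4me3 peak was 7.21 kb wide and lay inside an EZH2 peak of 9.74 kb, a SUZ12 peak of 11.2 kb and an H3K27me3 peak of 30.9 kb. Its summit lay 3702 bp upstream of the only Bcl11a start in the table, at 24080695. The gene model begins further upstream, at 24076564, so that start is internal and the summit lay inside the gene. The start calls and the CpG count of Bcl11a refer to this internal start. The 4 calls of Cebpa and Bcl11a were found together, with no other list, at 319 genes or 1.82%. In bulk chromatin, marks on the same copies of a gene and marks on different cells of the sample cannot be told apart.

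Joined across gaps of up to 3 kb, the H3K27me3 peaks formed a domain of 64.2 kb at Ebf1, 49.6 kb at Bcl11a, 30.8 kb at Cebpa and 28.1 kb at Gata2, against a median of 2.92 kb over 24143 domains. The Ebf1 domain was wider than 99.2% of them and the Gata2 domain wider than 95.2%. All 4 reached upstream of the start, by 30.9 kb at Ebf1, 33.3 kb at Bcl11a, 16.4 kb at Cebpa and 11.7 kb at Gata2. Widths depended on the gap: with gaps of up to 1 kb the Ebf1 domain was 27.1 kb, narrower than those of Bcl11a (35.6 kb) and Gata2 (28.1 kb). With gaps of up to 10 kb it was 105 kb, the Gata2 domain 95.5 kb and the Cebpa domain 52.3 kb.

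**Figure D3:**
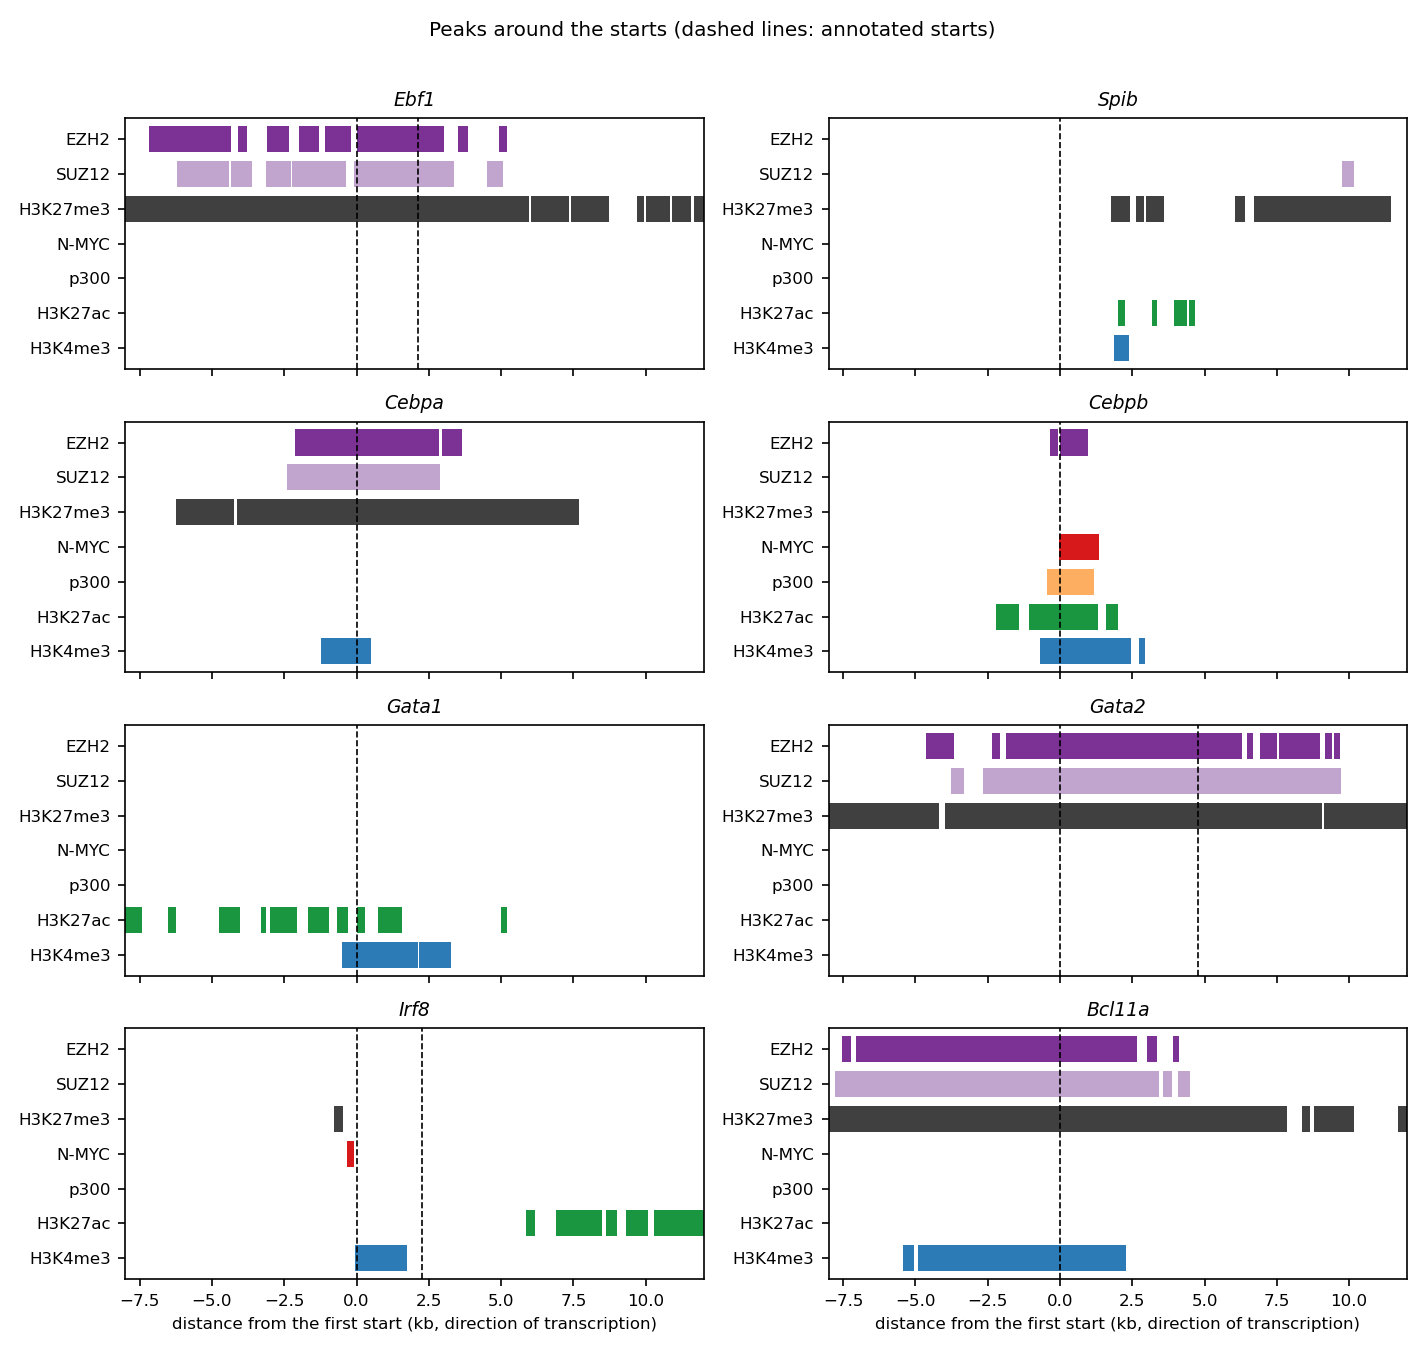
Peaks of the 7 lists (rows of each panel) from 8 kb upstream to 12 kb downstream of the first start of 8 genes, in kb along the direction of transcription, cut at the panel edges. Dashed lines mark annotated starts. EZH2, SUZ12 and H3K27me3 span the starts of Ebf1, Cebpa, Gata2 and Bcl11a, and at Cebpb EZH2 overlaps N-MYC, p300, H3K27ac and H3K4me3 in position.

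Cebpb shared the EZH2 and H3K4me3 calls of Cebpa, its paralog, and differed from it in the other 5 lists. At its start on chromosome 2 (gene from 167688915 to 167690432, plus strand), H3K4me3 reached 25.98, H3K27ac 13.38, N-MYC 7.0 and p300 7.0, and EZH2 was called at 4.99 with neither SUZ12 nor H3K27me3. The same 5 calls were made at 4440 genes, 25.4% of all, and of the 8047 genes with EZH2 at a start 74.2% had no SUZ12 there. The EZH2 value at Cebpb exceeded 32.2% of genes with EZH2, whereas p300 exceeded 79.6% and N-MYC 64.1% of theirs. In Cebpb the EZH2 summit lay 505 bp after the start, the H3K4me3 summit 471 bp, the N-MYC summit 269 bp and the p300 summit 209 bp after it, so EZH2 and H3K4me3 peaked closest to each other. Cebpb is a gene of a single short exon, and H3K4me3 covered 100% of its 1.52 kb. Within 50 kb of its start there were 49 H3K27ac peaks, 5 p300 peaks and 4 N-MYC peaks. Cebpb had the nearest start to 13 of these H3K27ac peaks, to 2 of the p300 peaks and to 2 of the N-MYC peaks. An H3K4me3 peak of 35.2 centred 28.0 kb upstream lay at an end of Tmem189. A p300 peak of 7.01 and an N-MYC peak of 5.84 lay there too, centred 0.04 and 0.23 kb from that end. Both are among the peaks counted above as nearest to the Cebpb start. A p300 peak (4.11) with N-MYC (3.74) on H3K27ac (10.04) lay 22.9 to 24.4 kb downstream of Cebpb, off H3K4me3.

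Irf8, on chromosome 8 (120736358 to 120756694, plus strand), had a combination found at 3 genes of 17492. N-MYC was called at 4.21, H3K4me3 at 7.99 and H3K27me3 at 3.41 within 1 kb of its first start, with no H3K27ac, p300, EZH2 or SUZ12. None of the 3 was strong: N-MYC was above 13.6%, H3K4me3 above 8.73% and H3K27me3 above 3.02% of the genes with such peaks. The 3 peaks lay side by side without overlap, H3K27me3 (314 bp wide) from -786 to -473 bp relative to the start, N-MYC (253 bp) from -346 to -94 bp and H3K4me3 from -57 to 1749 bp. Of the 5946 genes with N-MYC at a start, 1.40% had no H3K27ac there. At the second Irf8 start, 2281 bp downstream, H3K4me3 alone was called.

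The body of Irf8 looked different from its start. It held 8 H3K27ac peaks covering 58.8% of the gene, against a median of 2.23% over all genes, and all of them began 5.9 kb or more from the first start. The strongest, of 5.88 kb and fold enrichment 18.07, ran from 13.0 to 18.9 kb downstream, above 97.1% of all H3K27ac peaks, and carried the 1 p300 peak of the gene body (3.32). In the 50 kb on either side there were 54 H3K27ac peaks, 46 of them outside the gene, and 2 further p300 peaks of 3.64, 20.6 and 20.2 kb upstream. Irf8 had the nearest start to 14 of the 54 H3K27ac peaks. The start of Irf8 was thus without H3K27ac while the downstream part of the gene was rich in it.

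Spi1, on chromosome 2 (91082374 to 91115759), had an H3K27ac peak of 19.83 and 7.05 kb at the lower end of its gene model, from -1945 to 5104 bp relative to that end, the highest H3K27ac value of the 9 genes. No H3K4me3, p300 or N-MYC peak was called with it. Further in, 14.5 to 14.9 kb from that end, a weak H3K4me3 peak (4.08) coincided with a weak H3K27ac peak (2.83). The gene held 4 H3K27ac peaks and no EZH2 or SUZ12. H3K27me3 touched the gene by 2 bases at its upper end, where a domain of 11.1 kb began (highest fold enrichment 7.73) and ran into the neighbouring Mybpc3, a heart muscle gene.

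Spib had no peak of the 7 lists within 1 kb of its start, as did 28.2% of all genes. Inside its body, on chromosome 7 (44525995 to 44532087, minus strand), active and silent marks lay together at low values: H3K4me3 at 3.49, 4 H3K27ac peaks from 3.01 to 3.64 and 4 H3K27me3 peaks from 3.04 to 5.16. Of the 4 H3K27ac peaks 2 overlapped H3K27me3, whereas 3.46% of all 87072 H3K27ac peaks did. H3K27me3 covered 26.1% of the body and H3K27ac 18.1%. The strongest active peaks nearby belonged to neighbours, with H3K4me3 of 31.13 and H3K27ac of 18.65 at Nr1h2, centred 21.6 and 21.5 kb upstream of the Spib start.

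Within 1 kb of the start of Gata1, on the X chromosome (7959260 to 7976663, minus strand), H3K4me3 reached 12.10 and H3K27ac 5.48. No peak of the other 5 lists lay anywhere in the gene. H3K4me3 and H3K27ac alone were called at the start of 610 genes, 3.49%. Both Gata1 values were in the lower part of their range, above 14.5% and 12.3% of genes. The H3K27ac peak of 5.48 met only the edge of the window, running from -1691 to -949 bp with its summit at -1292 bp. The H3K27ac peak just after the start, from 11 to 304 bp, had a value of 4.44. The body held 10 H3K27ac peaks between 3.39 and 5.48 that covered 32.5% of it, from 8.5 kb upstream to 5.2 kb downstream of the start. On the minus strand the gene model begins at 7976663, upstream of that start, so the start is internal, as at Bcl11a. The start calls and the CpG count of Gata1 refer to this internal start. Near the beginning of the model, 7.42 to 8.45 kb upstream of the start, H3K27ac was called at 4.18 and H3K4me3 was not called. None of the 17 H3K27ac peaks within 50 kb met a p300 peak. Gata1 overlaps the non-coding gene Gm52419. The summit of the stronger H3K4me3 peak lay 246 bp after the Gata1 start. The centre of that peak lay 0.79 kb from an end of Gm52419, whose start was the nearest to it. After rounding, the starts of Gm52419 and Gata1 were both 0.8 kb from that centre. By peak centres, Gata1 had the nearest start to 14 of the 17 H3K27ac peaks and to none of the 3 H3K4me3 peaks within 50 kb. Gata1 and Gata2 shared no call at their starts.

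Over the gene bodies, which all 9 genes have, H3K4me3 was called at 7 genes (54.0% of all 21887 genes), H3K27ac at 6 (57.9%), H3K27me3 at 6 (30.2%), EZH2 at 5 (47.1%), SUZ12 at 4 (14.9%), p300 at 2 (42.0%) and N-MYC at 1 (35.3%). The 6 genes with H3K27me3 include Spi1 through its 2 bases. H3K27me3 and H3K27ac were both called in the bodies of Spi1, Spib and Bcl11a, 3 of 9, against 11.4% of all genes. In Bcl11a the 9 H3K27me3 peaks ended 22.2 kb from the start, and the 23 H3K27ac peaks ran from 19.9 to 73.4 kb, with fold enrichments of 2.77 to 6.40 and without p300. The marks met only between 21.34 and 22.18 kb, where H3K27me3 was weak (2.59 and 3.82). There 2 of the 23 H3K27ac peaks overlapped H3K27me3, against the 3.46% of all H3K27ac peaks that did. Cebpa had no H3K27ac in its body, but 13 H3K27ac peaks lay 19.7 to 37.0 kb downstream, with fold enrichments of 2.89 to 4.85 and no p300. None of the 13 had Cebpa as its nearest start, the nearest being those of Gm35665 and Gm35889.

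**Figure D4:**
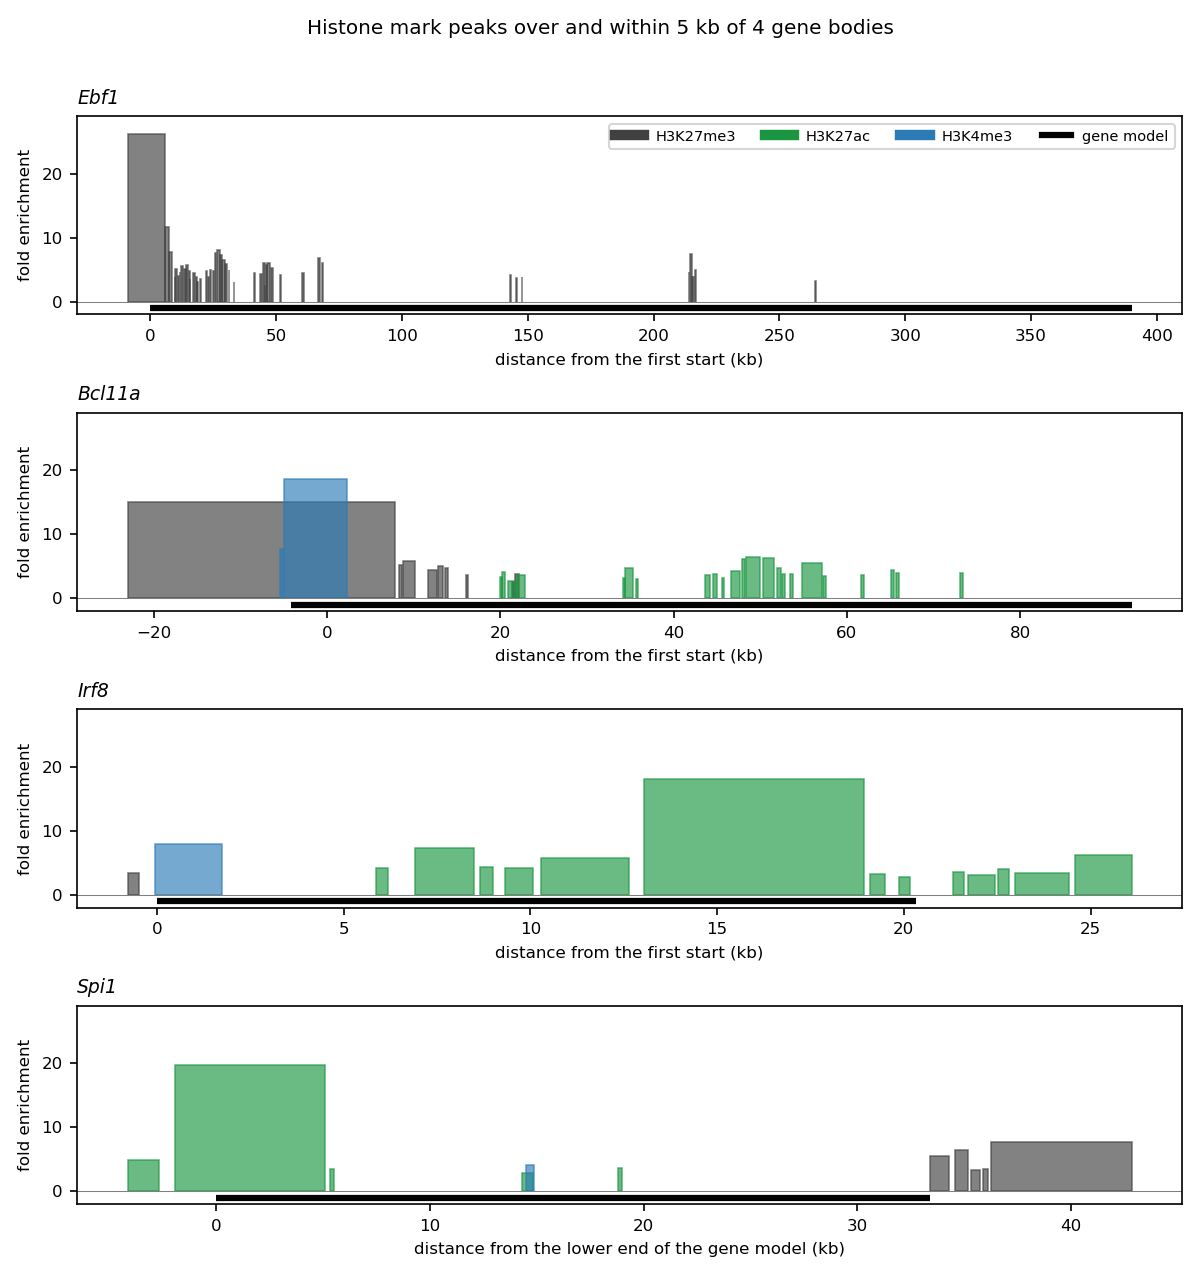
Peaks of H3K27me3, H3K27ac and H3K4me3 over Ebf1, Bcl11a, Irf8 and Spi1 and 5 kb beyond each end, with distance in kb on the x axis, bar width equal to peak width and bar height equal to fold enrichment. H3K27me3 of up to 26.24 stands at the start of Ebf1, H3K27ac of 18.07 inside Irf8 and H3K27ac of 19.83 at the lower end of Spi1.

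The paralogs of the 9 factors were read in the same way. Of 13, 8 had a start in the table, with EZH2, SUZ12 and H3K27me3 at 5 (Ebf3, Ebf4, Gata3, Gata5 and Irf4). Ebf3 and Ebf4 had EZH2 values of 12.98 and 12.54 and no active peak, as at Ebf1. Irf4, which acts in B cells and plasma cells, had EZH2 at 5.23, SUZ12 at 5.04 and H3K27me3 at 11.82 with H3K4me3 at 5.31, unlike Irf8. Gata3 and Bcl11b, the paralogs that act in T cells, carried H3K4me3 of 48.93 and 41.75 and H3K27ac of 28.31 and 19.31 at their starts, with N-MYC and p300. Polycomb calls were made there too. At its start Gata3 had EZH2 at 7.22, SUZ12 at 4.41 and H3K27me3 at 4.04, with H3K27me3 reaching 18.20 in its body. Bcl11b had EZH2 at 10.79 and H3K27me3 at 3.58 at its start, without SUZ12. Gata1 and Gata2 had neither N-MYC nor p300, and Bcl11a had 18.69 for H3K4me3 and no H3K27ac at its start. Cebpg resembled Cebpb, with EZH2 (9.99), N-MYC, p300, H3K27ac and H3K4me3 and no SUZ12 or H3K27me3. Spic, the other relative of PU.1, had no peak at its start, like Spib.

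Genes that act downstream of or beside the 9 factors were counted from lists of 16 each. Of 12 B-cell genes with a start, 8 had H3K4me3, 9 had H3K27ac, 2 had H3K27me3 and none had SUZ12. Over all genes with a start, the shares were 52.1% for H3K4me3, 52.2% for H3K27ac, 24.3% for H3K27me3, 12.8% for SUZ12 and 46.0% for EZH2. The B-cell genes with N-MYC, p300, H3K27ac and H3K4me3 together were Pou2af1, Foxo1 and Tcf3, and the last 2 also act in T cells. The highest H3K4me3 value of the 12 was 34.45 at the start of Vpreb1, with H3K27ac at 21.41, within the range of the T-cell markers for both, and no H3K4me3 peak overlapped the gene body of Vpreb1. Of 14 myeloid genes, 8 had H3K27me3, 3 had H3K4me3 and 1, Klf4, had SUZ12 and EZH2. Csf2ra (H3K4me3 20.76) and Ncf1 (4.03) were the other 2 with H3K4me3, and neither had H3K27me3. Of 12 erythroid, megakaryocyte and mast-cell genes, 6 had H3K4me3, 6 had H3K27me3 and 4 had both. One of these, Tal1, a partner of GATA1, had EZH2 at 18.93, SUZ12 at 18.29, H3K27me3 at 23.26 and H3K4me3 at 19.89, and in contrast to Bcl11a also H3K27ac at its start (8.81).

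T-lineage factors, from a list of 16, gave another picture. All 14 with a start had EZH2, H3K27ac and H3K4me3, 13 had p300 and 11 had N-MYC, against 5, 2, 5, 1 and 2 of the 8 lineage factors in the same order. Over all genes with a start the shares were 46.0%, 52.2%, 52.1%, 40.6% and 34.0%, again in that order. SUZ12 was called at 5 of the 14, each with EZH2 and H3K27me3, against 4 of 8. The median H3K4me3 value was 38.41 over the T-lineage factors and 7.40 over the 8 genes. All lists come from the same 7 libraries, and the difference has no test.

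**Figure D5:**
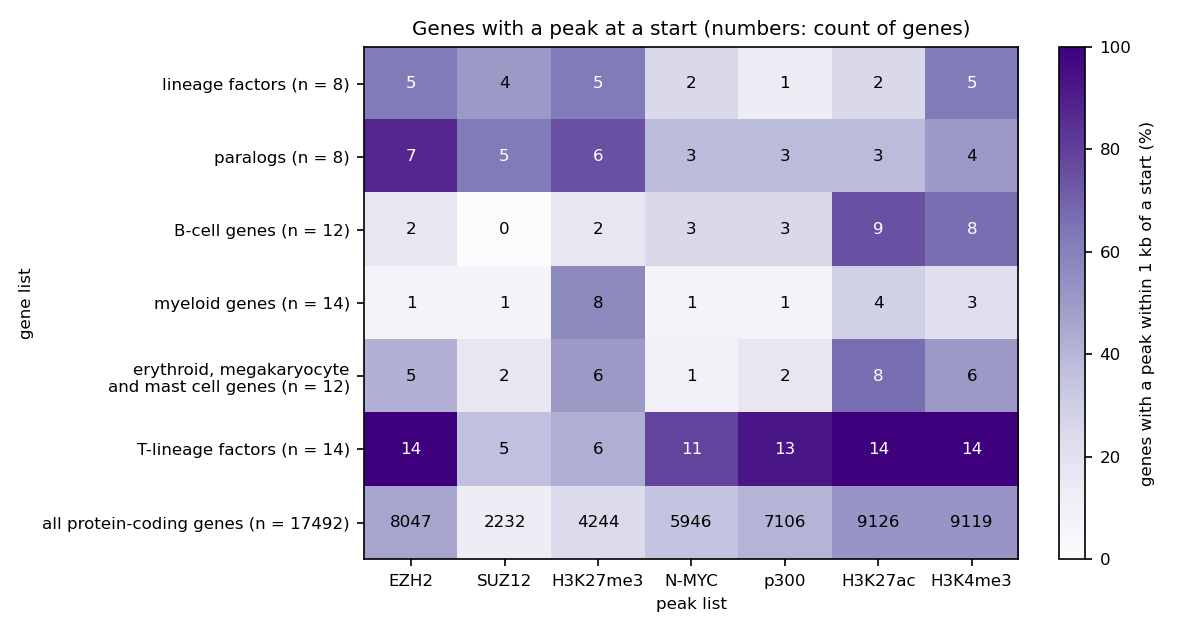
Share of genes with a peak within 1 kb of a start, in percent, for 7 gene lists (rows) and the 7 peak lists (columns), with the count of genes printed in each cell. The 14 T-lineage factors all have EZH2, H3K27ac and H3K4me3, while 1 of the 8 lineage factors has p300.

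The genes closest to each member over the 7 start values, by Euclidean distance of log2(1 + fold enrichment), were Pdgfa for Ebf1 (distance 0.15), Rgl3 for Gata2 (0.03), Kif26b for Cebpa (0.20), Hmga2 for Bcl11a (0.59), Izumo1r for Gata1 (0.02) and Mical2 for Irf8 (0.84). Hira was 1 of 2 genes tied for Cebpb (0.14), and 4923 genes tied with Spib, all without a peak. The closest genes of Bcl11a and Irf8 thus lay further off than those of Gata1 and Gata2. How far the closest gene lies for the 17492 genes in general was not computed.

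Markers of cell types were read to check the label of the tissue. Of the T-cell markers, 7 had a start and all 7 had H3K4me3 and H3K27ac, with medians of 31.67 and 23.63, and none had H3K27me3. Of 4 B-cell markers 3 had H3K4me3, between 3.77 (Cd22) and 4.74 (Cd79a). Over its gene body, where a peak that only reaches into the gene also counts, Cd79a had H3K4me3 at 32.49 and H3K27ac at 12.09. Of 4 myeloid markers none had H3K4me3 and 3 had H3K27me3, and of 6 erythroid and megakaryocyte markers 3 had H3K4me3 (Klf1, Epor and Hba-a1, from 18.28 to 19.79). Of 5 thymic epithelial markers 1 had H3K4me3, and of 2 endothelial and 2 fibroblast markers none did. The part of other cells of the thymus in the peaks at Gata1, Irf8, Spib and Spi1 was not tested.

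The counts at starts depend on how a peak is assigned. When the summit had to lie within 1 kb of a start, Ebf1 and Gata2 kept all 3 Polycomb calls. Cebpa lost EZH2, SUZ12 and H3K27me3, and Bcl11a lost EZH2, SUZ12 and H3K4me3, so that Irf8 alone of the 8 then had both H3K4me3 and H3K27me3. The EZH2 and SUZ12 summits of those wide peaks lay 1007 and 1121 bp from the start at Cebpa and 1548 and 1554 bp at Bcl11a. At Bcl11a both summits lay upstream of the internal start in the table and inside the gene model. When each list was limited to its 9798 most significant peaks, H3K4me3 was called at Cebpb and Bcl11a only.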

How the data were processed

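Peaks of 7 ChIPmentation libraries, 1 per antibody, were read from 1 deposited list each. Bowtie2, SAMtools, MACS2, deepTools and FastQC and the build mm10 (GRCm38) are named, without roles or versions, per the submitters' processing notes. Filters, pooling and the use of the inputs are not given in the sources used here. Each peak carries a fold enrichment over background, a linear ratio deposited by the authors, and p and q were deposited as −log10 values, the smallest −log10 q being 2.0 to 2.08. The deposited whole-number score equals 10 times the −log10 q, cut to a whole number, in every list and was not used. Lists hold only called peaks, so a missing peak shows no call, not absence.

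Starts came from a RefSeq promoter table and gene bodies from RefSeq, both GRCm38.p6, on 21 chromosomes. A peak counted when it overlapped the region by at least 1 bp, and the highest fold enrichment was kept. The table is not complete: 79.9% of protein-coding genes had a start. Overlap steps were tested on simulated data. Analyses used Python 3.11.15, pandas 2.3.3 and NumPy 2.4.6. The 9 genes, the gene lists and the rules were chosen with earlier results of these data known. Named genes were the 9 members, genes of the fixed lists with or without the peak described, the closest gene by profile and genes nearest to a described peak. Tmem189 and Mybpc3 fall outside that rule and were chosen by position after their peaks were seen.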

Additional observations from a re-analysis of the deposited data

How the results depend on the processing

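Counts of genes were recomputed under other windows, starts, overlap rules and peak thresholds, giving 107 alternative values for 16 counts, of which 95 stayed within 1.5 times the reported count. With a window of 5 kb, H3K27ac was called at 4 genes, with Spib and Irf8 added. With the summit required inside the window, EZH2 was called at 3 genes, SUZ12 at 2 and all 3 Polycomb lists at 2. With lists of equal length, H3K27ac was called at a start of 1 gene, H3K4me3 of 2 and any active list of 3, and in gene bodies H3K27ac at 3 and H3K4me3 at 2. The p300 count in gene bodies fell to 1, without Irf8, at a q-value of at most 1e-05, at a fold enrichment of at least 4 and with lists of equal length. Under the same settings the H3K27me3 count at starts fell to 4, also without Irf8. Adding Spi1 by the ends of its gene model, an alternative chosen after seeing the data, moved no count by more than 1.5 times. No paired analysis was possible because each antibody had 1 library. Depth is unknown, so what the lists were too shallow to call cannot be stated.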
